A study of Mus musculus with 2 samples.

Results

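The glycosyltransferases and sulfotransferases that build mucin-type sugar chains, with their closest relatives by name, were compared between the colons of mice on a psyllium diet and on a control diet. Members were the probe sets that name exactly 1 gene and whose gene symbol in the platform annotation begins with 1 of 12 name stems: Galnt, B3gnt, B3galt, B4galt, B4galnt, C1galt1, Gcnt, St3gal, St6gal, St8sia, Fut and Chst. This gave 99 probe sets of 92 genes, out of 23521 probe sets of 22180 genes. The psyllium array carried total RNA from the colons of healthy male ICR mice, an outbred stock, aged 7 weeks and fed a diet with 10% psyllium for 5 days. The control array carried the same kind of RNA from mice fed the diet without psyllium. The number of mice behind each array and the layers of the colon wall that were taken are not stated in the labels. With 1 array per diet there is no replicate check, so each difference below is between 2 arrays, carries no error and has no p-value.

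The mucus of the colon is made of mucins, proteins whose serines and threonines carry dense sugar chains. A chain is started in the Golgi by a polypeptide GalNAc-transferase, which attaches N-acetylgalactosamine (GalNAc) to the protein. A core enzyme then adds galactose or N-acetylglucosamine (GlcNAc) to it, extension enzymes lengthen the chain with galactose and GlcNAc, and sialic acid, fucose, GalNAc or sulfate caps its ends. Many enzymes of the same families also act on N-glycans, glycolipids or the glycosaminoglycan chains of proteoglycans, so the name stems take in more than mucin synthesis.

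All values are normalised intensities, and a difference is log2 of the psyllium intensity minus log2 of the control intensity. A gene counted as past the filter when its mean log2 level over both arrays reached the median of all genes, an intensity of 64.4. This was so for 62 of the 92 members, and the other 30 were dim on these arrays. Across the 11090 genes past the filter the difference had an SD of 0.32. Over 332 genes with a pair of probe sets past the filter, the differences of the pair lay a median of 0.16 apart, which measures agreement on the same RNA and not between animals. Whether the probes of these families tell close relatives apart is not stated in the labels.

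The members as a whole lay close to the other genes, while the medians of the 6 steps of chain assembly ran from -0.16 to 0.38. Over all 92 members the median difference was 0.060, with 51 higher and 41 lower on the psyllium array. Over all genes the median was -0.0025 and 47.2% were higher. Of the 62 members past the filter 5 were at least 1.5-fold higher, which is 8.06%, beside 3.72% of all genes past it. None was at least 1.5-fold lower, beside 2.26% of all genes past the filter. The 5 were B3gnt6, St3gal3, B3gnt9, B3gnt5 and St3gal4, and B3gnt6 alone was also past 2-fold, beside 1.01% of all genes. No member below the filter reached 1.5-fold in either direction.

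By step, the medians were highest for core formation and chain start and lowest for sulfation. Core formation had a median difference of 0.38 over 6 genes and chain start one of 0.24 over 19 genes. Chain extension had 0.0022 over 24 genes, sialic acid capping 0.071 over 20, fucose and GalNAc capping -0.091 over 9 and sulfation -0.16 over 13. Past the filter the same medians were 0.38, 0.29, -0.034, -0.024, -0.091 and -0.21. The fucose and GalNAc step also holds Fut8, Fut10 and Fut11, whose assigned substrates are not mucin chains, and its median is the value of Fut11. Its other members past the filter, Fut4, B4galnt2 and Fut2, differed by 0.37, -0.11 and -0.24. Of the 18 start and core genes past the filter 14 were higher on the psyllium array, and of the 18 sialic acid, fucose and GalNAc capping genes past it 8 were. Among all genes past the filter 42.5% were higher. The extension median changed sign under 4 of 6 other settings and the sialic acid one when dim members were left out, so neither has a settled direction. The other 4 medians kept their sign over the alternatives run, and 3 of them moved by over 1.5 times. Chain start lay between 0.15 and 0.29, fucose and GalNAc capping between -0.091 and -0.034, and sulfation between -0.21 and -0.061. The gaps between steps were not tested, since 1 array per diet gives no spread to set them against.

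**Figure D1:**
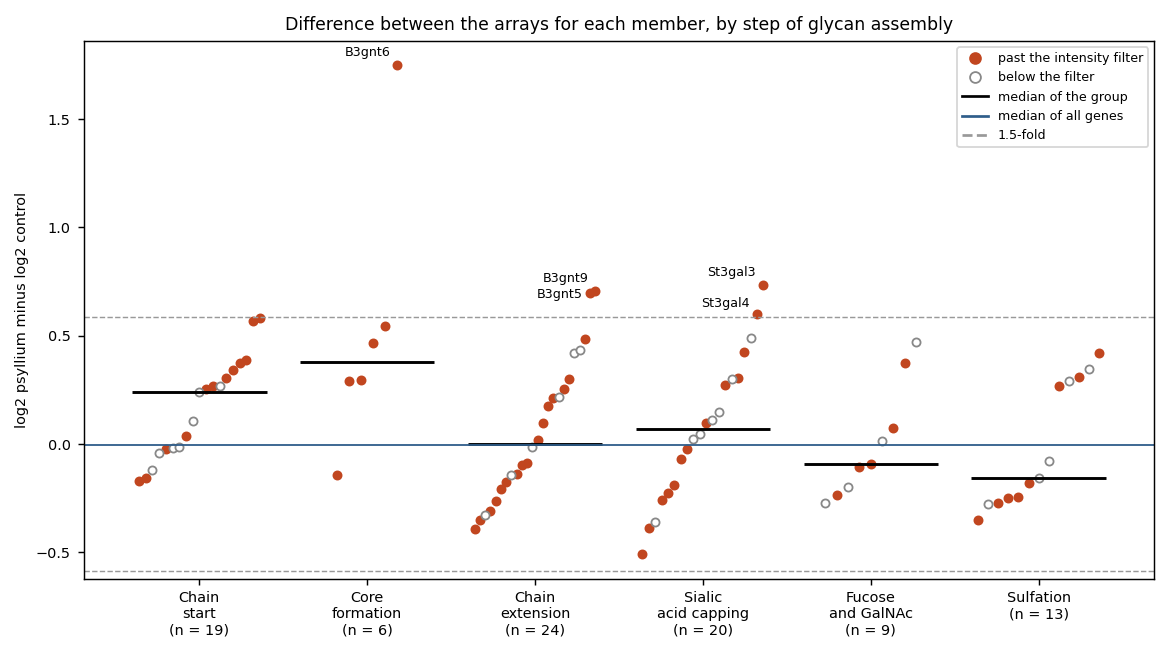
Difference between the arrays (log2 psyllium minus log2 control, y axis) for 91 members in 6 steps of glycan assembly (x axis). Filled points are members past the intensity filter and open points are those below it, black bars are step medians, the blue line is the median of all genes and dashed lines mark 1.5-fold. B3gnt6 stands at 1.75, above every other member, and the 5 named genes are those above the upper dashed line.

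Core formation, the step that decides which type of mucin chain is made, held the largest difference of any member. B3gnt6 encodes the core 3 synthase, which adds GlcNAc to the first GalNAc and is characteristic of colonic mucins. Mice without it are known to be more prone to experimental colitis. Its intensity was 427 on the psyllium array and 127 on the control array, 3.36-fold higher and a difference of 1.75. Both values lay above the filter level, and the difference ranked 24th from the top among the 11090 genes past the filter. In whole-tissue RNA a change in the number of cells of a type and a change in RNA per cell cannot be told apart, here as for every gene below.

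The core 1 branch was higher too, by less. C1galt1, which adds galactose to the first GalNAc to make core 1, had 2236 on the psyllium array and 1534 on the control array (1.46-fold). C1galt1c1, also called Cosmc, the chaperone that C1galt1 needs in order to fold, had 212 on the psyllium array and 174 on the control array, a difference of 0.29. The branching enzymes that add GlcNAc to core 1 or core 3 were mixed. Gcnt1, a core 2 enzyme, differed by 0.47 (102 on the psyllium array and 73.6 on the control array), and Gcnt3, the mucin-type enzyme that makes cores 2 and 4, by 0.29 (psyllium 1612, control 1314). Gcnt4 was the 1 core gene with a negative difference, -0.14 (psyllium 185, control 204). All 6 core genes were past the filter, 5 of them higher on the psyllium array.

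At the chain start, most GalNAc-transferases with clear signal were somewhat higher and none reached 1.5-fold. Past the filter 9 of 12 were higher with psyllium, and their median was 0.29. Galnt5 came closest to the threshold, with 498 on the psyllium array and 333 on the control array, a difference of 0.583 where 1.5-fold is 0.585. Galnt16 differed by 0.57, but its control intensity of 56.4 lay below the filter level, against 83.6 on the psyllium array.

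Several transferases that prefer a peptide already carrying GalNAc, and so fill in the dense clusters of a mucin, were among the higher ones. Galnt7 had 1416 on the psyllium array and 1083 on the control array (1.31-fold), Galnt10 had 377 with psyllium and 305 in the control (1.24-fold), and Galnt12 had 635 with psyllium and 527 in the control (1.20-fold). Galnt4, also of this kind, differed by only 0.039 (psyllium 941, control 916). Galnt3 and Galnt6, close relatives in sequence, differed by 0.34 (psyllium 1042, control 823) and 0.25 (psyllium 756, control 633).

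The broadly expressed starters Galnt2 and Galnt1 went in opposite directions. Galnt2 had 317 on the psyllium array and 245 on the control array, a difference of 0.37. Galnt1 had 610 with psyllium and 681 in the control, a difference of -0.16, and its other probe set gave -0.11. Galnt11, known from kidney where it modifies endocytic receptors, had the most negative difference of the step, -0.17 (psyllium 194, control 218), and Galnt18 differed by -0.023. The 7 dim members, Galnt9, Galnt13, Galnt14, Galnt15, Galnt17, Galntl5 and Galntl6, had intensities from 15.9 to 60.5 on the psyllium array and from 17.3 to 61.1 on the control array, with differences from -0.12 to 0.27.

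**Figure D2:**
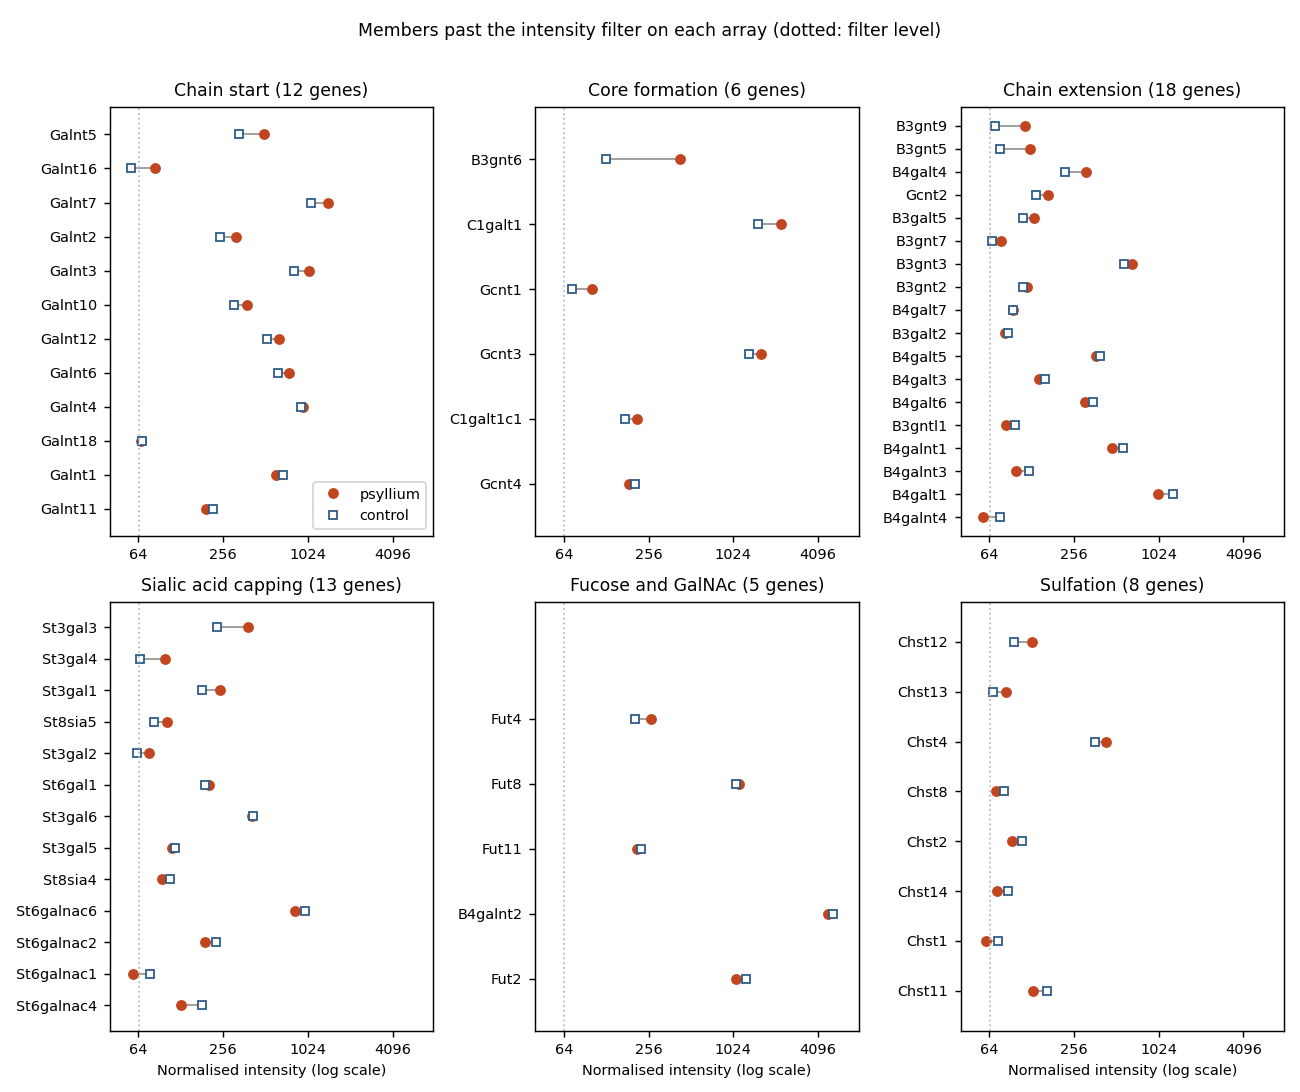
Normalised intensity (x axis, log scale) of each of the 62 members past the filter on the psyllium array (filled circles) and the control array (open squares), in 6 panels by step and ordered by difference. The dotted line is the filter level of 64.4, and points are to be compared within a row. B3gnt6 has the widest gap, and the St6galnac rows at the foot of the sialic acid panel have psyllium to the left of control.

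Chain extension split by family. All 7 B3gnt enzymes, which add GlcNAc, were higher with psyllium, 6 of them past the filter, and their median of 0.43 includes the core enzyme B3gnt6. Over all genes 47.2% were higher. B3gntl1, which shares the name stem and is past the filter, was set apart from these 7 and was lower, at -0.21. B3gnt5, which starts the lacto and neolacto series of glycolipids, had 124 on the psyllium array and 76.5 on the control array (1.62-fold). B3gnt9 had 114 with psyllium and 69.8 in the control (1.63-fold). Both lie close to the filter level, where 3.82% of all genes with a mean intensity between 64.4 and 129 were at least 1.5-fold higher. B3gnt3, which extends core 1 chains, differed by 0.18 (psyllium 659, control 583), B3gnt2, the main poly-N-acetyllactosamine enzyme, by 0.097 and B3gnt7 by 0.21 on each of its 2 probe sets. B3gnt8, below the filter, differed by 0.43 (psyllium 50.1, control 37.1).

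Of the galactosyltransferases past the filter, 4 of 6 B4galt and 1 of 2 B3galt enzymes were lower. Of the B4galt enzymes 33.3% were thus higher, beside 42.5% of all genes past the filter, so no direction of the family is read from this. B4galt1, which makes N-acetyllactosamine, had 1018 on the psyllium array and 1297 on the control array, a difference of -0.35. B4galt3 (-0.14), and B4galt5 and B4galt6 (-0.098 and -0.17), which make lactosylceramide, were also lower. B4galt4, which prefers sulfated GlcNAc, went the other way with 311 on the psyllium array and 222 on the control array (1.40-fold). B3galt5, which makes type 1 chains in the gut, differed by 0.26 (psyllium 132, control 111) and B3galt2 by -0.085.

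All 4 B4galnt genes, whose enzymes add GalNAc, were past the filter and lower with psyllium, and their median was -0.29. Among all genes past the filter 42.5% were higher. B4galnt1, a ganglioside enzyme, had 477 on the psyllium array and 572 on the control array (-0.26). B4galnt3 and B4galnt4, which make the LacdiNAc unit, differed by -0.31 (psyllium 98.5, control 122) and -0.39 (psyllium 58.1, control 76.2). The psyllium value of B4galnt4 lay below the filter level. B4galnt2, counted among the caps because it finishes the Sda blood-group antigen of colonic mucins, differed by only -0.11 (psyllium 4856, control 5227).

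The other extension genes gave no common direction. Gcnt2, which branches poly-N-acetyllactosamine into the I antigen, differed by 0.30 (168 on the psyllium array and 137 on the control array), while its 2 dimmer probe sets gave -0.54 and -0.065. B4galt7, which builds the linker of proteoglycans, differed by 0.018 on one probe set and by 0.51 on the other, both past the filter. B3gntl1 differed by -0.21. The dim members B3galt1, B3galt4, B3galt6, B4galt2, B3gnt8 and Gcnt7 differed by -0.33 to 0.43.

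Among the sialyltransferases the family that caps galactose was mostly higher and the family that caps GalNAc mostly lower. The St3gal enzymes had a median of 0.35, with 4 of 6 higher with psyllium and all past the filter. The St6galnac enzymes had a median of -0.31, with 5 of 6 lower, among them all 4 past the filter. Among all genes past the filter 42.5% were higher. These families were set apart by name, each holds only 6 genes, and their gap was not tested.

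St3gal3, which caps type 1 and N-acetyllactosamine chains, had 385 on the psyllium array and 232 on the control array (1.66-fold). St3gal4, which caps N-acetyllactosamine, had 99.7 with psyllium and 65.8 in the control (1.51-fold), with its control value only just above the filter level. It was no longer past 1.5-fold with a pseudocount of 16 or with the intensity trend removed. St3gal1, which caps core 1, had 244 with psyllium and 182 in the control (1.34-fold), and St3gal2 had 76.2 with psyllium and 63.0 in the control (1.21-fold). The members that did not share this direction were St3gal6, at -0.024 (psyllium 413, control 420), and St3gal5, the GM3 ganglioside synthase, at -0.070 (psyllium 111, control 117).

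St6galnac4, which adds a further sialic acid to sialylated core 1, had the most negative difference of all 92 members, -0.51, with 128 on the psyllium array and 183 on the control array (1.42-fold lower). St6galnac1, the sialyl-Tn enzyme of goblet cell mucins, had 58.9 with psyllium and 77.1 in the control, a difference of -0.39 with the psyllium value below the filter level. St6galnac2 differed by -0.26 (psyllium 191, control 229) and St6galnac6, which acts on gangliosides and type 1 chains, by -0.22 (psyllium 833, control 972). Of the dim members St6galnac3 differed by -0.36 and St6galnac5 by 0.11. In the RefSeq gene table St6galnac1 and St6galnac2 are adjacent protein-coding genes, and so are St6galnac4 and St6galnac6. Each of these pairs was lower in both members, whereas the adjacent St6galnac3 and St6galnac5 differed in sign.

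The promoters of 4 genes of these families are shown because St3gal3 and St3gal4 were the highest and St6galnac4 and St6galnac6 belong to the family that was lower. The sequences are RefSeq's, assembly GRCm38.p6, each the 250 bases before the annotated start, 5′ to 3′ on the gene's strand. Capitals mark GC boxes, here GGGCGG or its reverse complement, the letters read by Sp1-type factors. The windows are chr4:118134947-118135196 and chr9:35116865-35117114, both on the minus strand, and chr2:32586828-32587077 and chr2:32599459-32599708, both on the plus strand.
St3gal3: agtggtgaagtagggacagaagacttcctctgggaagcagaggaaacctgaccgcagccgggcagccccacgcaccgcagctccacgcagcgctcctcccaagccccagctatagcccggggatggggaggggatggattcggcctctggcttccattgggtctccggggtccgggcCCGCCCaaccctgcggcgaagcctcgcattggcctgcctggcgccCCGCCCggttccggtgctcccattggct
St3gal4: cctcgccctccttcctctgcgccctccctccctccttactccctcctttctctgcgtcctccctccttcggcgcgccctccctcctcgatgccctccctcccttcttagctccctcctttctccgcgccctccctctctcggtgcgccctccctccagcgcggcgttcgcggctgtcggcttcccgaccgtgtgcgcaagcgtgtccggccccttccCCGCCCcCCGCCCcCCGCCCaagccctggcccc
St6galnac4: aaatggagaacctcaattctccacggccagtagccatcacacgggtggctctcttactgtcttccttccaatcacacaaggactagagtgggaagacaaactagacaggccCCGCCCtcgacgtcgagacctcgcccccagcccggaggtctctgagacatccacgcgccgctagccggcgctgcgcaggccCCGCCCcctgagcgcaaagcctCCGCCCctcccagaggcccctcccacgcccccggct
St6galnac6: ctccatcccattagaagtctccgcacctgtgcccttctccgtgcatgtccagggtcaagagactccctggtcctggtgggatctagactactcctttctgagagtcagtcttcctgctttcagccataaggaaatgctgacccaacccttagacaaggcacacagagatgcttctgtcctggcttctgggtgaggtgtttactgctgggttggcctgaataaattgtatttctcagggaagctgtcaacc
St3gal3 holds 2 GC boxes, St3gal4 and St6galnac4 hold 3 each, and St6galnac6 holds 0. The motif was found in 32.7% of all 32851 windows of this length and in 47 of 89 windows of 69 members. TATA boxes (TATAAA), E-boxes (CAGCTG) and CDX sites (TTTATNG) were searched on both strands too and none lies in these 4 windows. They were found in 12.4%, 13.0% and 9.81% of all windows and in 2, 13 and 3 of the 89 member windows. GC content was 68.4% for St3gal3, 72.8% for St3gal4, 65.2% for St6galnac4 and 51.6% for St6galnac6, beside a median of 52.4% over all windows.

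No other sialyltransferase reached 1.5-fold. St6gal1, which caps N-glycans, differed by 0.096 (204 on the psyllium array and 191 on the control array). St8sia4, a polysialic acid enzyme, differed by -0.19 and St8sia5, a ganglioside enzyme, by 0.31 (psyllium 103, control 83.0). St6gal2 and the dim St8sia genes, St8sia1, St8sia2, St8sia3 and St8sia6, differed by 0.024 to 0.49.

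**Figure D3:**
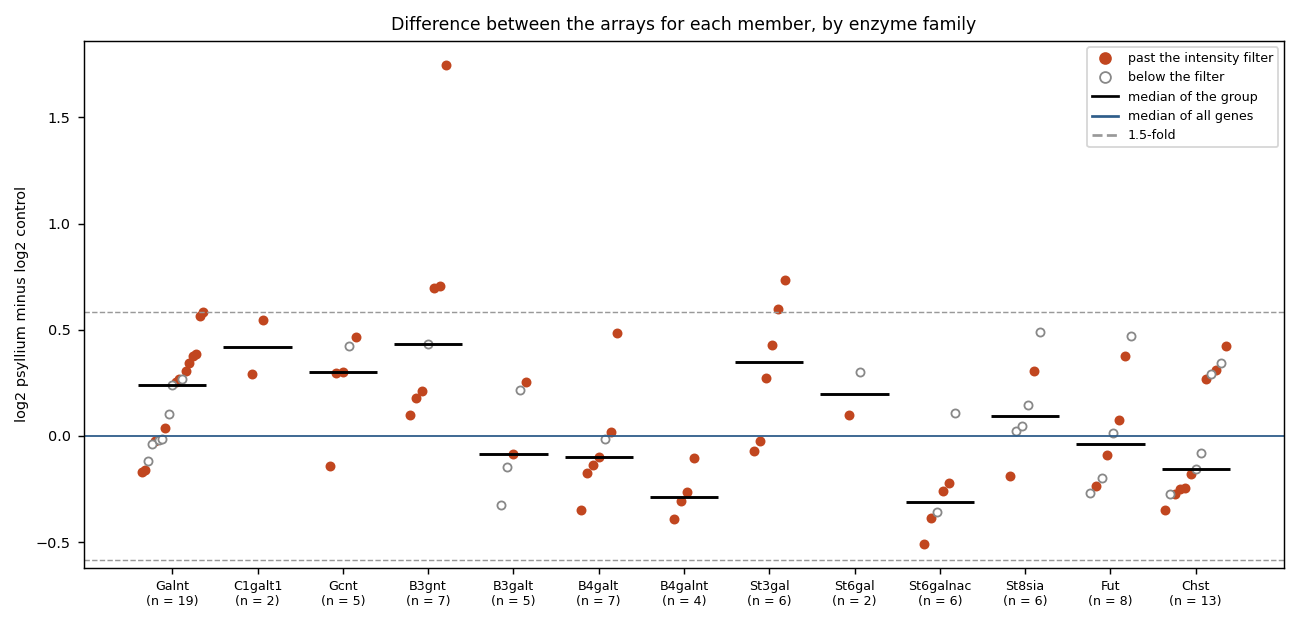
Difference between the arrays (log2 psyllium minus log2 control, y axis) by enzyme family (x axis), with filled points past the filter, open points below it and black bars at family medians. B3gnt and St3gal medians stand at 0.43 and 0.35, and B4galnt and St6galnac medians at -0.29 and -0.31. B3gntl1, which is not counted in the B3gnt family, and the pseudogene Fut4-ps1 are not shown.

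Fucosyltransferases, some of which make the H and Lewis antigens, had no common direction. Fut2, the secretor enzyme of the gut epithelium, which is known to respond to gut microbes, had 1078 on the psyllium array and 1270 on the control array (-0.24). Fut4, which makes Lewis x, had 267 with psyllium and 206 in the control, a difference of 0.37. Fut8, which fucosylates the core of N-glycans, differed by 0.075 (psyllium 1123, control 1066) and Fut11 by -0.091 on one probe set and -0.013 on the other. Fut1, Fut7, Fut9 and Fut10 were dim, with at most 45.6 on the psyllium array and 45.1 on the control array, and differed by -0.27 to 0.47. The pseudogene Fut4-ps1, a member by name without a step, differed by 0.24 (psyllium 25.0, control 21.2).

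Sulfotransferases were lower in 8 of 13 members, and none reached 1.5-fold. Of the 13 members 38.5% were thus higher, beside 47.2% of all genes, so no direction is read from this count. Chst4, which sulfates GlcNAc on mouse colonic mucins, was higher, with 432 on the psyllium array and 359 on the control array (1.20-fold). Chst2, which sulfates the same sugar, differed by -0.25 (psyllium 92.3, control 109), and Chst1, which sulfates galactose, by -0.27 (psyllium 60.9, control 73.5). Chst5, another intestinal GlcNAc sulfotransferase, was dim on both arrays (psyllium 53.0, control 56.0). Chst8, which acts on N-glycans of hormones, differed by -0.18 (psyllium 72.0, control 81.5).

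Enzymes that sulfate chondroitin and dermatan, the chains of matrix proteoglycans, went both ways. Chst11 differed by -0.35 (130 on the psyllium array and 165 on the control array) and Chst14 by -0.25 (psyllium 72.7, control 86.5). Chst12 differed by 0.42 (psyllium 128, control 95.5) and Chst13 by 0.31 (psyllium 84.1, control 67.9). Of the 7 members assigned to glycosaminoglycans, 4 were higher and 3 lower with psyllium. These 7 also include 2 galactosyltransferases of the extension step, B4galt7 (0.018) and the dim B3galt6 (-0.14), which are not sulfotransferases. The dim Chst3, Chst7, Chst9 and Chst10 differed by -0.27 to 0.34.

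Sorted by what they act on, the 32 enzymes dedicated to O-glycans had a median of 0.25, with 21 higher and 11 lower. Over all genes 47.2% were higher. The 31 that serve several kinds of glycan had a median of -0.013, with 15 higher and 16 lower. The 10 glycolipid enzymes had a median of -0.023 and the 5 N-glycan enzymes one of 0.075. Of the 32 O-glycan enzymes 19 are GalNAc-transferases and 6 are core genes, so this split and the one by step share most of their genes.

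Genes that supply the transferases were slightly higher in some branches and lower in others, and none past the filter reached 1.5-fold. Of 19 measured genes of donor synthesis 13 were higher with psyllium, which is 68.4%, beside 47.2% of all genes. Their median was 0.21, while their summed intensity was lower, 20833 on the psyllium array and 22281 on the control array. Gfpt1, the entry enzyme of the hexosamine pathway, had 3415 on the psyllium array and 2796 on the control array (0.29). Papss2, which makes the sulfate donor, had 3426 with psyllium and 4979 in the control (-0.54), and the sulfate transporter Slc26a2 had 1420 with psyllium and 1974 in the control (-0.47). Other genes of the sulfate donor were not lower. Papss1, which also makes it, differed by 0.054 (psyllium 905, control 872), and its Golgi transporters Slc35b2 and Slc35b3 differed by 0.11 and 0.12. Genes of the sialic acid branch were chosen after their values were seen. Gne, Nans, Nanp and Cmas differed by 0.27, 0.25, 0.43 and 0.081, and the Golgi transporter of its donor, Slc35a1, by 0.39 (psyllium 1007, control 770).

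The Golgi donor transporters, counted together with the sulfate transporter Slc26a2, which is not one of them, had a median of 0.11 with 7 of 13 higher. The Golgi tethers and conserved oligomeric Golgi (COG) genes had one of 0.082 with 10 of 14 higher. In the second list Uso1 differed by 0.19 and Atp6v0a2 by -0.19. A list of genes for glycan breakdown had a median of -0.11, and 6 of the 7 past the filter were lower. Among these were the sialidase Neu1 (-0.27) and the fucosidase Fuca1 (-0.11). The list also holds the sulfatases Galns (-0.16), Arsb (-0.082) and the dim Arsa, and the protease Ctsa (-0.12), which do not remove sugars. Past the filter 14.3% of the list were higher, beside 42.5% of all genes. Of the mucins, Muc2, the secreted mucin of the colon, had 11892 on the psyllium array and 9087 on the control array (0.39), and the membrane mucin Muc13 differed by -0.18 (psyllium 7337, control 8336). The entries Muc3 and Muc3a went in opposite directions, at -0.20 (psyllium 6037, control 6948) and 0.42 (psyllium 2413, control 1809). The 11 measured mucins had a median of 0.069.

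**Figure D4:**
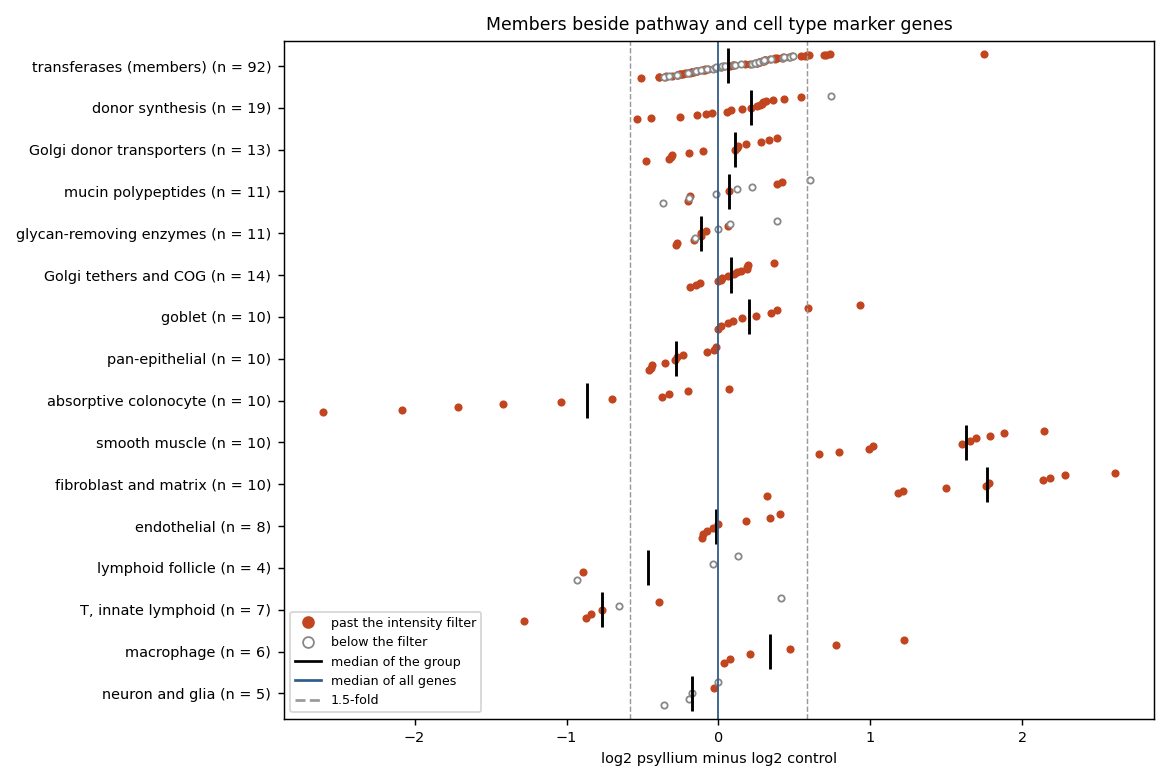
Difference between the arrays (x axis, log2 psyllium minus log2 control) for the 92 members, 5 lists of pathway genes and 10 lists of cell type markers (y axis). Points are genes, filled past the filter and open below it, and black bars are list medians. The members spread around 0, while smooth muscle and matrix markers lie to the right and absorptive colonocyte markers to the left.

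Markers of several cell types differed between the arrays, and their part in the differences above was not tested. The 10 goblet cell markers had a median of 0.20, 9 of them higher on the psyllium array, with a summed intensity of 41364 on the psyllium array and 34623 on the control array. Spdef, a goblet cell regulator, was 1.90-fold higher (psyllium 651, control 342) and the mucin chaperone Agr2 differed by 0.59 (psyllium 6202, control 4122). Others of the list hardly differed. Clca1, Zg16 and Fcgbp were at 0.019, 0.061 and 0.097 and Ang4 at -0.0035. All 10 pan-epithelial markers were lower, with a median of -0.28 and sums of 17202 with psyllium and 20340 in the control. Of 10 absorptive colonocyte markers 9 were lower, with a median of -0.87 and sums of 20282 with psyllium and 29508 in the control. The largest difference among the 10 goblet markers was that of Spdef, 0.93, and that of B3gnt6, the largest of the members, was 1.75. How the 2 relate was not tested.

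Among markers of cells outside the epithelium, those of smooth muscle and matrix differed most. All 10 smooth muscle markers were higher, with a median of 1.63 and sums of 30844 on the psyllium array and 12760 on the control array. All 10 matrix markers were higher, with a median of 1.77 and sums of 12252 with psyllium and 4293 in the control. The 6 macrophage markers had a median of 0.34 (sums of 889 with psyllium and 633 in the control), the 8 endothelial ones -0.019 (psyllium 1282, control 1185) and the 7 T and innate lymphoid ones -0.77 (psyllium 407, control 705). Of the lymphoid follicle markers Cxcl13 differed by -0.89 (psyllium 206, control 384), and the high endothelial markers Glycam1 and Madcam1 were below the filter on both arrays. The 5 measured neuron and glia markers had a median of -0.17, with 1 past the filter.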

How the data were processed

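Expression was measured on 2 whole-transcript arrays, 1 per diet. The authors deposited 1 normalised intensity for each probe set and array, on a linear scale. The submitters' processing notes name RMA and Affymetrix Expression Console and give no version, and the annotation used was not stated there. The deposited intensities were converted to log2 without a pseudocount, since all were above 0, with medians of 49.8 on the psyllium array and 48.9 on the control array. RMA as usually run equalises arrays, so differences are then relative to the bulk of transcripts. The number of arrays limits the precision.

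Gene names came from GEO's platform annotation, and none of the 92 member symbols differed from the RefSeq table of GRCm38.p6. Of 41345 probe sets 1814 name several genes and 16010 are unnamed here, and these stayed out. For 6 members with several probe sets the brightest by mean was used. Steps and substrates were assigned by hand from general knowledge. Named genes were the members past the filter at 1.5-fold, the 3 largest differences in each direction and the 2 highest levels of each step, and up to 4 per context list. The other members past the filter, the sialic acid and sulfate donor genes, and some further mucin and goblet genes were also named, after their values were seen. The members and lists were chosen with earlier results of these data known. The calculation was tested on shuffled differences with known changes added, which checks the arithmetic and not the error between arrays or animals. Python 3.11.15, pandas 2.3.3 and statsmodels 0.14.6 were used. Alternatives covered the probe set, normalisation, intensity trend, pseudocount, symbols, filter and fold.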

Additional observations from a re-analysis of the deposited data

How the results depend on the processing

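No paired analysis was possible because each diet has 1 array. The number of members at least 1.5-fold higher was 4 to 6 under 7 of the 8 alternatives and 1 at 2-fold, and the number at least 1.5-fold lower was 0 under all 8. The fold of 2 and the pseudocount could only leave that 0 unchanged. Membership by the current symbol changed no member, so that alternative repeats the main values for every result. B3gnt6 was higher under every alternative. St3gal4 was no longer past 1.5-fold with a pseudocount of 16 or with the intensity trend removed, and Galnt5 joined the higher genes after further quantile normalisation and with the trend removed, where C1galt1 joined as well. The median of chain extension, 0.0022 in the report, was -0.049 with the mean over probe sets, -0.011 after quantile normalisation, -0.012 without the trend and -0.034 without the dim members. The median of sialic acid capping was -0.024 without the dim members. The medians of chain start, core formation, fucose and GalNAc capping, sulfation and all members kept their sign under the 6 alternatives run for them, and each moved by less than 0.16, the median gap between probe sets of a gene. The pseudocount of 16 brought chain start to 0.15 and sulfation to -0.061, and without the trend fucose and GalNAc capping was -0.034. Of the 62 members past the filter 60 kept their sign under 4 other scalings, the exceptions being St3gal6 and Gcnt2. The B3gnt family, counted without B3gntl1, kept 7 of 7 higher, and the B4galnt family kept 4 of 4 lower. Dim members, 30 of 92, have folds that rest on signals near those of the lower part of the arrays.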

Other observations

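Probe sets that name a member together with another gene were outside the comparison. There were 6 of them, and none differed by 1.5-fold. The one shared by Chst15, which adds sulfate to chondroitin, and Gm10584 had 73.9 on the psyllium array and 80.1 on the control array, a difference of -0.12, and was the only one past the filter. The others, shared by B3gnt4, B4galt2, St6gal1, St8sia1 and St8sia3 with a neighbour, differed by -0.33 to 0.16.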
